A study of Mus musculus with 6 samples.

Results

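The core circadian clock genes are 10 genes, Per1, Per2, Per3, Cry1, Cry2, Arntl (also called Bmal1), Clock, Nr1d1, Nr1d2 and Dbp, taken by symbol from a table of 48795 counted genes. Each symbol matched 1 Ensembl identifier, and all 10 were among the 16861 genes with enough reads to be tested. They were measured by polyadenylated RNA sequencing of mouse hippocampus in 3 wild-type (WT) and 3 knockout (KO) libraries. KO mice (genotype ifKO in the labels), on a C57BL/6J background, carried the floxed alleles Kdm1a f/f and Kdm5c f/f together with CamKIIα-CreERT2. CreERT2 is a recombinase that needs tamoxifen, and the CamKIIα promoter limits it to the forebrain's principal neurons, so the other cell types of the tissue are not targeted. Recombination removes exons 5 and 6 of Kdm1a and exons 11 and 12 of Kdm5c, and no group lacked 1 enzyme alone. Mice of both genotypes were given tamoxifen, at an age of 2 to 3 months. The sources used here do not give the hour of dissection, the time since tamoxifen or whether WT mice carried the recombinase. They do not say either that each library is a different animal, so p-values measure the spread between these libraries.

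The clock is a feedback loop of transcription that most cells of the body carry. CLOCK and ARNTL pair and activate genes through E-boxes, among them the Per and Cry genes, whose proteins return to the nucleus and block that pair. REV-ERBα and REV-ERBβ, the products of Nr1d1 and Nr1d2, close a further loop by repressing Arntl, and DBP carries the rhythm to output genes through D-boxes. In the hippocampus some of these transcripts follow a daily rhythm, and Per1 also responds quickly to neuronal activity and to glucocorticoids. KDM1A and the KDM5 family, histone H3 lysine 4 demethylases, have both been tied to the activity of CLOCK and ARNTL in other tissues.

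Stretches of DNA that match the letters of clock motifs close to a start site are shown for 6 members, 1 stretch each. RefSeq promoter windows (GRCm38.p6, 250 bases before a start and 50 from it on) were found for 9 of the 10 members, all except Per2, which was not searched, and numbered 13 in all. Both strands were searched for the E-box CACGTG, its variant CACGTT, the D-box TTANGTAA, the ROR and REV-ERB core AGGTCA and the CRE TGACGTCA. All lines read 5′ to 3′ on the strand of the gene, and capitals mark the match, so that AACGTG is CACGTT on the other strand.
Per1, chr11:69098768-69098803, plus strand, E-box: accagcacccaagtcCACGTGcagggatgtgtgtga
Cry1, chr10:85185094-85185148, minus strand, variant then E-box: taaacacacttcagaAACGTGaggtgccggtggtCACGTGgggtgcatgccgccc
Cry2, chr2:92434215-92434250, minus strand, variant: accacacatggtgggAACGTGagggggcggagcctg
Nr1d1, chr11:98775385-98775420, minus strand, variant: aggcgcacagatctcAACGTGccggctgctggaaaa
Per3, chr4:151044801-151044885, minus strand, D-boxes: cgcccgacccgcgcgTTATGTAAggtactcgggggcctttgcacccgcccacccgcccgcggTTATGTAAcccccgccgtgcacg
Arntl, chr7:113207530-113207559, plus strand, ROR and REV-ERB core: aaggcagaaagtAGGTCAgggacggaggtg

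An E-box stood in the windows of 2 members, Per1 and Cry1, beside 7.15% of all 32851 windows. Members are counted as genes, of which Per1 and Arntl have 2 windows and Clock 3. The percentages here count windows, so the units differ. The variant was found in Cry1, Cry2 and Nr1d1 (4.68% of all windows) and the D-box in Per3 alone, with 2 matches (2.32%). AGGTCA was found in Per1, Arntl, Clock and Nr1d2 (16.3% of all windows) and the CRE in none of the 13 windows (1.79%). The AGGTCA matches of Per1, Clock and Nr1d2 are not printed. The Per1 E-box lay 166 to 161 bases before its start, and the Per3 D-boxes lay 205 to 198 and 158 to 151 bases before theirs. The Arntl stretch lies in the annotated first exon, 20 to 49 bases from its start, and the other 5 stretches lie outside annotated exons. A match is a description of letters and not of a bound site.

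Of the 10 genes, 1 rose in the KO and 0 fell, with an adjusted p under 0.05 over all genes tested as the threshold. The gene that rose was Dbp, whose transcript was 31.0% higher. Cry1 was 27.1% higher, Per1 20.2% lower and Per2 13.3% lower without passing. The other 6 genes lay within 7.43% of the WT level, with Nr1d1 and Nr1d2 within 1%. Among all genes tested 6.95% passed, 5.90% upward and 1.05% downward, so a share of 1 in 10 was near that of the genome at large. The count of 0 falls came from edgeR's quasi-likelihood test, while 2 members were lower and 2 higher at an unadjusted p under 0.05 and 0 fell by DESeq2 or limma-voom. At that unadjusted p, 7.66% of all genes tested were lower and 12.6% higher. The median log2 fold change of the 10 was -0.04, beside -0.01 for all genes tested.

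**Figure D1:**
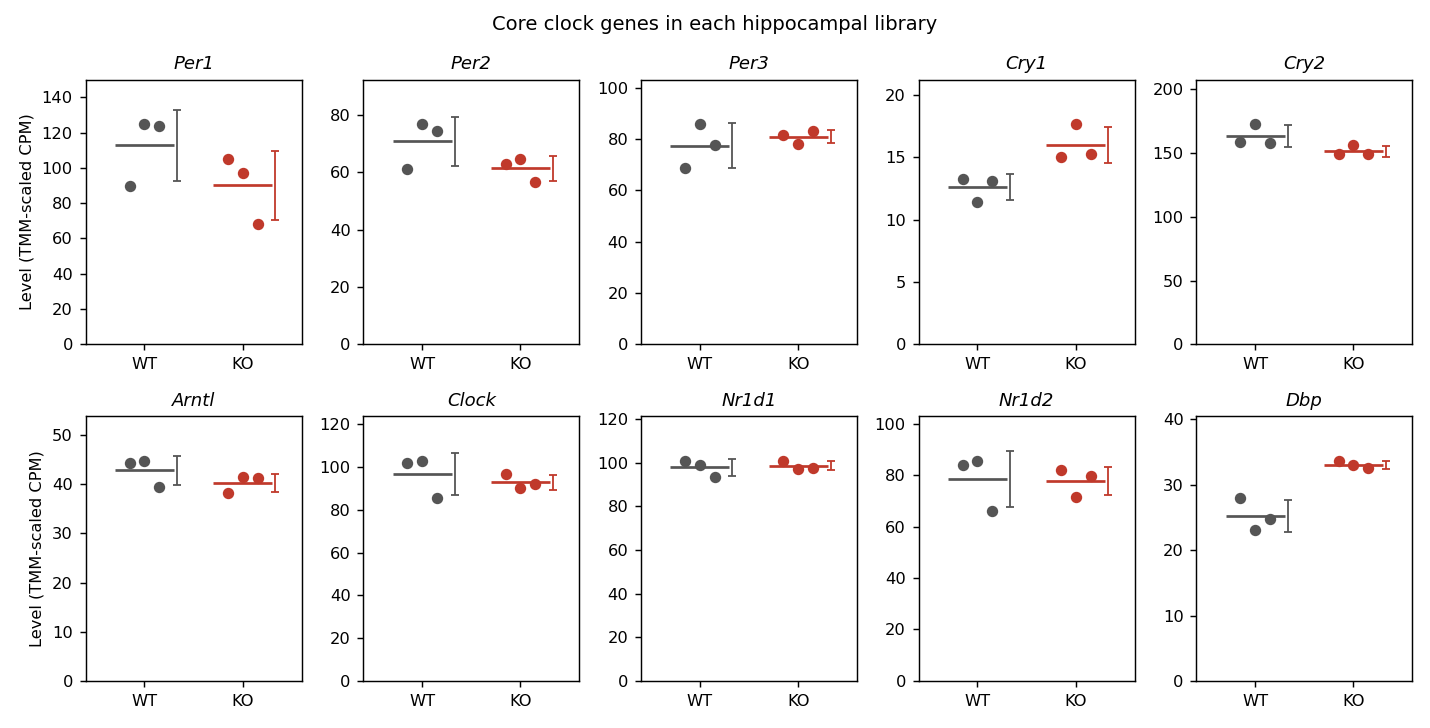
Level of each core clock gene in counts per 1e+06 reads (CPM, TMM-scaled, vertical axes from 0) in the 3 WT (grey) and 3 KO (red) libraries, with the group mean as a line and the SD as a bar. The KO points of Dbp and Cry1 all lie above the WT points, those of Cry2 lie below them, and the groups overlap in the other 7 genes.

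Dbp encodes a PAR leucine-zipper transcription factor that is among the strongest rhythmic outputs of the clock (ENSMUSG00000059824, chromosome 7, 45705088 to 45710203, plus strand, GRCm38). Its level, in counts per 1e+06 counted reads (CPM), was 27.9, 23.0 and 24.8 CPM in WT replicates 1 to 3 and 33.7, 33 and 32.5 CPM in KO replicates 1 to 3. The KO values were closely grouped, and all 3 lay above the highest WT value. The means were 25.2 ± 2.48 and 33.1 ± 0.621 CPM (SD, n = 3 each), a log2 fold change of 0.39 (SE 0.0829, adjusted p = 0.00968). Adjusted p values here come from edgeR's quasi-likelihood test unless another tool is named. The 95% interval of the change ran from 15.8% to 48.3%. Leaving out each library in turn gave log2 fold changes of 0.33 to 0.47 with adjusted p from 0.0062 to 0.043. Correcting each library for GC content gave 0.30 with an adjusted p of 0.0434.

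Reads near the 3′ end of Dbp can also overlap a neighbour. Of the 2993 exonic bases of Dbp, 539 (18.0%) overlap exons of Sphk2, a sphingosine kinase gene on the opposite strand, and the strand setting of the counting is not given. Sphk2 averaged 35.4 ± 3.96 CPM over WT and 30.7 ± 0.609 CPM over KO libraries. Its log2 fold change was -0.20, opposite in sign to that of Dbp, and did not pass (adjusted p = 0.191). The effect of the shared bases on the Dbp count was not tested. The relatives Tef and Hlf, PAR leucine-zipper factors that bind the same D-boxes, had log2 fold changes of 0.02 (SE 0.0509) and 0.07 (SE 0.0693) and did not pass. Nfil3, a repressor at D-boxes, averaged 15.1 ± 0.904 CPM over WT and 12.2 ± 1.03 CPM over KO libraries without passing (adjusted p = 0.0930). Per3, which holds the pair of D-boxes shown above, measured 68.6, 86.0 and 77.9 CPM in WT and 81.5, 78.1 and 83.1 CPM in KO. Those values overlapped, and the 95% interval of the Per3 change ran from -6.75% to 16.8%. Of the 225 tested genes with a D-box in a promoter window, 16 rose and 2 fell (8%, median log2 fold change -0.01), beside 7.27% of the 12016 tested genes with any window.

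The activators of the loop were close between the groups. Clock (ENSMUSG00000029238, chromosome 5, 76209868 to 76304792, minus strand) encodes the histone-acetylating partner of the pair and measured 102, 103 and 85.6 CPM in WT and 96.5, 90.0 and 91.8 CPM in KO. Arntl (ENSMUSG00000055116, chromosome 7, 113207465 to 113314126, plus strand), the obligate partner, measured 44.3, 44.8 and 39.4 CPM in WT and 38.2, 41.4 and 41.2 CPM in KO. In both genes WT replicate 3 was the lowest WT library, and the groups overlapped. The changes were -4.16% for Clock (95% interval -14.1 to 6.95%) and -5.96% for Arntl (-15.6 to 4.76%), and neither passed. Npas2, which can stand in for CLOCK in the forebrain, had a log2 fold change of -0.04 (SE 0.0868).

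Period genes encode the repressors that accumulate with each turn of the loop. Per1 (ENSMUSG00000020893, chromosome 11, 69095217 to 69109960, plus strand) measured 89.7, 125 and 124 CPM in WT replicates 1 to 3 and 105, 97.3 and 68.0 CPM in KO replicates 1 to 3. It varied more within each group than any other member, with WT replicate 1 and KO replicate 3 low. The log2 fold change was -0.33 (SE 0.143, adjusted p = 0.218). Leaving out KO replicate 3 gave -0.15, and leaving out WT replicate 1 gave -0.47. With no filter on low counts Per1 passed (adjusted p = 0.0411).

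Per2 (ENSMUSG00000055866, chromosome 1, 91415982 to 91459324, minus strand) measured 61.0, 76.9 and 74.4 CPM in WT and 62.9, 64.7 and 56.5 CPM in KO. The same 2 libraries were the lowest of their groups as for Per1. Its log2 fold change was -0.21 (SE 0.0854, adjusted p = 0.190), and without WT replicate 1 it was -0.30 and passed (adjusted p = 0.0351). Per3 (ENSMUSG00000028957, chromosome 4, 151003652 to 151044665, minus strand) had a log2 fold change of 0.06 (SE 0.0755), which was -0.02 without WT replicate 1. WT replicate 1 was therefore the lowest WT library for all 3 Period genes.

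Cryptochromes encode the partners of the PER proteins and the stronger repressors of the activating pair. Cry1 (ENSMUSG00000020038, chromosome 10, 85131700 to 85185064, minus strand) measured 13.3, 11.4 and 13.1 CPM in WT and 15.0, 17.7 and 15.3 CPM in KO. The groups did not overlap, yet the difference fell short of the threshold (log2 fold change 0.35, SE 0.103, adjusted p = 0.0639). The 95% interval of the change ran from 8.98% to 48.3%. It passed with scaling by library size alone (adjusted p = 0.0462) and at a threshold of 0.1, which 10.1% of all genes tested passed. Cry2 (ENSMUSG00000068742, chromosome 2, 92403646 to 92434043, minus strand) measured 159, 173 and 158 CPM in WT and 149, 156 and 149 CPM in KO. Here too the groups did not overlap, with KO lower, and the log2 fold change was -0.11 (SE 0.0604, adjusted p = 0.333). Of the Cry2 exonic bases 4.67% overlap D930015M05Rik, which had under 2 CPM in every library. In all, 3 of the 10 members (Dbp and Cry1 upward, Cry2 downward) had groups without overlap, against 25.2% of all genes tested.

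The genes of the REV-ERB repressors differed least between the groups. Nr1d1 (ENSMUSG00000020889, chromosome 11, 98767932 to 98775333, minus strand) measured 101, 98.8 and 93.6 CPM in WT and 101, 97.1 and 97.7 CPM in KO. Its change was 0.550% with a 95% interval from -7.86% to 9.72%, and its SE on the log2 scale (0.0585) was the smallest of the 10. Of its 3077 exonic bases 263 (8.55%) overlap Thra, a thyroid hormone receptor gene on the opposite strand. Thra was far more abundant (942 ± 92.4 CPM in WT, 940.2 ± 43.3 CPM in KO). How reads of the shared bases were assigned or discarded is not given, and it can affect the Nr1d1 count. Nr1d2 (ENSMUSG00000021775, chromosome 14, 18204054 to 18239127, minus strand) shares no exonic base with another annotated gene and measured 83.9, 85.7 and 66.0 CPM in WT and 82.2, 71.7 and 79.7 CPM in KO. Its groups overlapped throughout, with a change of -0.834% (95% interval -13.3 to 13.4%). The sign of both genes depended on the setting, as both lay close to 0.

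**Figure D2:**
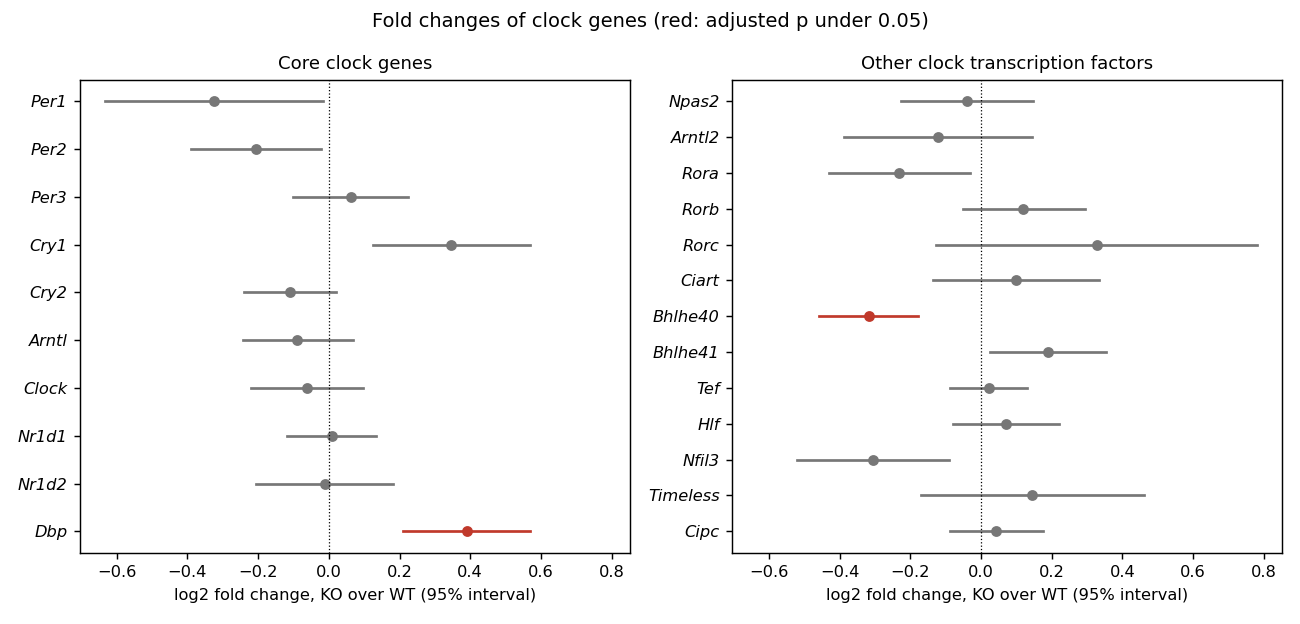
Log2 fold change, KO over WT, with its 95% interval for the 10 core clock genes (left) and 13 further clock transcription factors (right). Points and lines in red passed an adjusted p of 0.05, which Dbp did upward (0.39) and Bhlhe40 downward (-0.32).

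Levels of the 10 genes were ordered per length of exon, as CPM per kilobase of exon (RPKM). In WT, Nr1d1 was highest at 31.8 ± 1.30 RPKM, followed by Cry2 at 25.8 ± 1.40 and Per1 at 20.04 ± 3.55 RPKM (SD, n = 3). Nr1d2 (14.5 ± 2.01), Per2 (12.1 ± 1.46), Dbp (8.42 ± 0.828), Per3 (8.07 ± 0.905) and Clock (7.05 ± 0.707) followed, then Arntl (5.70 ± 0.393) and Cry1 (3.77 ± 0.302 RPKM). Ranges over the WT libraries overlapped between Nr1d2 and Per2, Dbp and Per3, and Per3 and Clock, so these neighbours did not differ beyond their spread. In KO, Dbp stood at 11.0 ± 0.208 RPKM and Per2 at 10.5 ± 0.738 RPKM, with overlapping ranges. Exon length was taken over all annotated transcripts, so a gene with long rarely used exons is placed too low.

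Dbp and Arntl peak in opposite parts of the day in most tissues, and their ratio within a library needs no scaling between libraries. The log2 ratio of Dbp to Arntl counts was -0.67, -0.96 and -0.67 in WT replicates 1 to 3 and -0.18, -0.33 and -0.35 in KO replicates 1 to 3. Each KO library lay above each WT library. The mean was -0.77 ± 0.168 in WT and -0.29 ± 0.0900 in KO, a difference of 0.48 that ranged from 0.39 to 0.53 when each library was left out in turn. This ratio is given as a description, with no test, and Dbp is the 1 member that passed. The difference combines the log2 fold changes of Dbp (0.39) and Arntl (-0.09), which were 0.30 and -0.09 after GC correction. Since the hour of dissection is not given, a difference in hour between the groups cannot be told apart from a difference of genotype.

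**Figure D3:**
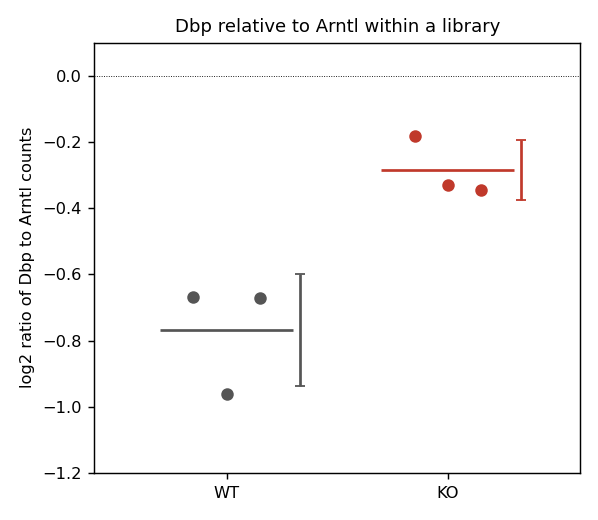
Log2 ratio of Dbp to Arntl counts (vertical axis) in each WT (grey) and KO (red) library, with the group mean as a line and the SD as a bar. The 3 KO libraries lie between -0.35 and -0.18, all above the WT libraries.

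Other genes of the clock showed few changes. Of 43 tested genes in 2 lists, further clock transcription factors and the kinases, phosphatases, ubiquitin ligases and cofactors of the clock, 0 rose and 2 fell, against 5.90% and 1.05% of all genes tested, with a median log2 fold change of -0.01. For the 0 that rose in edgeR's quasi-likelihood test, 1 gene (Bhlhe41) was higher at an unadjusted p under 0.05 and 0 rose by DESeq2 or limma-voom. Bhlhe40 encodes DEC1, an E-box repressor that competes with CLOCK and ARNTL, and its level was 148, 151 and 148 CPM in WT and 116, 130 and 112 CPM in KO. The groups were well apart, with a log2 fold change of -0.32 (SE 0.0651, adjusted p = 0.00748), yet the call was lost without KO replicate 1 (adjusted p = 0.0508) or KO replicate 3 (0.0685). Its relative Bhlhe41 (DEC2) averaged 31.1 ± 1.88 CPM over WT and 35.5 ± 1.92 CPM over KO libraries without passing (adjusted p = 0.174).

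Csnk1a1, the gene of casein kinase 1α, which phosphorylates PER proteins among many substrates, also fell. It measured 347, 362 and 352 CPM in WT and 281, 277 and 297 CPM in KO. All KO values were lower than all WT values (log2 fold change -0.31, SE 0.0545, adjusted p = 0.00231), and the adjusted p was at most 0.022 with any 1 library left out. The kinases more often named as clock regulators, Csnk1d and Csnk1e, had log2 fold changes of -0.05 and -0.03, both short of the threshold. Rora and Rorb, activators of Arntl through the AGGTCA core, had -0.23 (adjusted p = 0.171) and 0.12 (0.442).

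**Figure D4:**
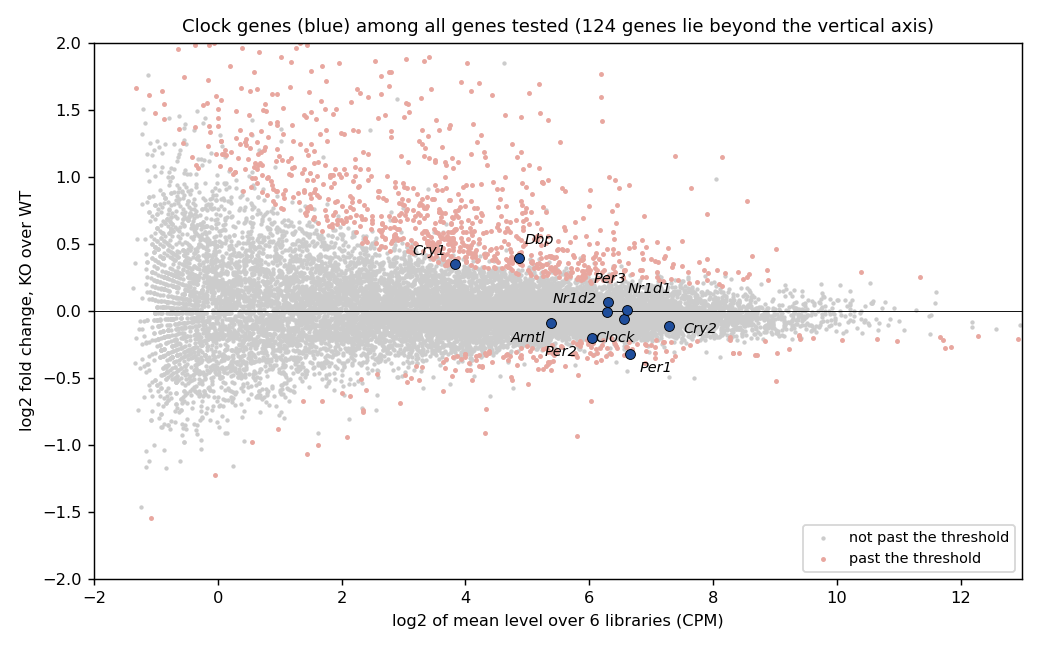
Log2 fold change, KO over WT, against log2 of the mean level in CPM for all 16861 genes tested, in grey where they did not pass and in light red where they did, with the 10 core clock genes in blue. Dbp lies in the cloud of genes that rose, and 124 genes lie beyond the vertical axis.

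Per1 was the member with the widest spread over the 6 libraries, 0.87 on the log2 scale. Each of 10340 genes of at least 10 CPM was compared with it by the root mean square difference of log2 levels, each gene centred on its own mean over the 6 libraries. The nearest were Dusp5, a phosphatase of MAP kinase signalling (0.0640), the immediate early gene Nr4a1 (0.0760), Rrp8 (0.103), Shkbp1 (0.116) and Klf15, a glucocorticoid-induced factor (0.122). A flat gene would have a difference of 0.30 from Per1, and Dbp had 0.469. Their low levels in WT replicate 1 and KO replicate 3 follow from this choice by likeness, as do fold changes close to that of Per1. Per2 ranked 20 in this order (0.163).

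**Figure D5:**
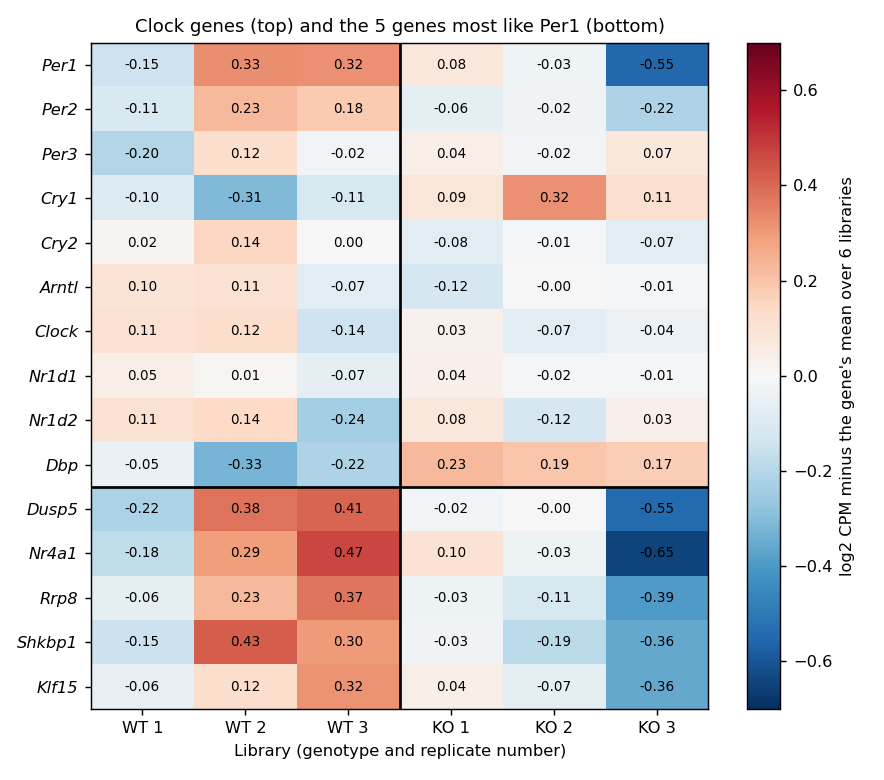
Log2 CPM minus the gene's own mean over the 6 libraries, red where higher and blue where lower, for the 10 core clock genes (top) and the 5 genes most like Per1 (bottom). Per1 and the genes below the line are high in WT replicates 2 and 3 and low in KO replicate 3, while Dbp, Cry1 and Cry2 divide by genotype.

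Genes that follow glucocorticoids, neuronal activity, body temperature or the clock itself were read beside the members, since each can move Per1, Per2 or Dbp. Of 17 glucocorticoid-induced genes, Per1 included, 16 had negative fold changes and 0 passed either way (edgeR, and also DESeq2 and limma-voom), while 8 were lower at an unadjusted p under 0.05. Over all genes tested 51.8% had negative fold changes and 7.66% were lower at that p. Their summed level was 890.5 to 1254 CPM in WT and 883 to 980.9 CPM in KO, so the groups overlapped. Tsc22d3, a glucocorticoid-induced leucine zipper, measured 76.5, 117 and 146 CPM in WT and 89.3, 86.5 and 72.8 CPM in KO, lowest in the same library of each group as Per1. It passed without WT replicate 1 (log2 fold change -0.67, adjusted p = 0.00192) and with no filter on low counts (adjusted p = 0.00553), against 0.132 with all libraries and the filter. Errfi1, a glucocorticoid-induced inhibitor of EGF receptor signalling, had a log2 fold change of -0.20 (adjusted p = 0.142). Of 23 immediate early genes, again with Per1, 19 had negative fold changes and 8 were lower at an unadjusted p under 0.05. The 1 that fell, beside 1.05% of all genes tested, was Nr4a2 (-0.37, SE 0.0886, adjusted p = 0.0205). Its adjusted p was 0.101, 0.0590 and 0.148 when WT replicate 1, WT replicate 2 and KO replicate 3 were left out in turn, which ends the call.

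Among 18 tested output genes of the clock, 15 had negative fold changes (median -0.12) and 7 were lower at an unadjusted p under 0.05. Some of these genes also stand in the glucocorticoid list, so the counts are not independent. The output gene that fell was Noct, the gene of a rhythmic phosphatase of NADP(H) (74.2, 84.4 and 81.6 CPM in WT, 67.1, 67.2 and 67.3 CPM in KO, adjusted p = 0.0233), 1 of the 18 beside 1.05% of all genes. The Noct call was lost without WT replicate 2 (0.0672) or KO replicate 1, 2 or 3 (0.0871, 0.0948 and 0.118). Of 11 temperature-responsive genes the heat shock gene Hspa1b rose (9.03 ± 1.43 to 18.9 ± 0.908 CPM) and Hsph1, a co-chaperone gene, fell (-0.33, SE 0.0660). By DESeq2 and by limma-voom 2 fell, with Hsp90aa1 added. Cirbp and Rbm3, the RNA-binding proteins induced by cold, did not pass (0.26 and -0.08). At an unadjusted p under 0.05, 3 of the 11 were higher (Cirbp, Hspa1a and Hspa1b) and 5 lower, beside 12.6% and 7.66% of all genes tested. Hspa1b and Hspa1a (0.43, adjusted p = 0.104) are near-identical copies, so their split of reads is uncertain. Over the 62 tested genes of these 4 lists without the members, 1 rose and 3 fell, with a median log2 fold change of -0.18. Over all genes tested 5.90% rose and 1.05% fell, with a median of -0.01. Of the 62, 50 had negative fold changes, beside 51.8% of all genes tested. An unadjusted p under 0.05 was found for 25 of the 62, beside 3412 of all 16861. The number that fell was 10 with no filter on low counts, 7 with WT replicate 1 left out and 1 with KO replicate 3 left out. The number that rose was 2 with no filter or with WT replicate 3 left out. The part of time of day, stress or activity in the values of the clock genes was not tested.

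The libraries held 19309576 to 19700249 counts each, and Kdm1a fell from 73.7 ± 3.95 to 38.6 ± 1.29 CPM while Kdm5c, counted over the whole gene and not over the deleted exons, at 79.5 ± 2.97 and 70.6 ± 4.67 CPM, did not pass (adjusted p = 0.143). Markers of principal neurons were abundant in every library (summed 7049 to 7559 CPM in WT and 6683 to 7325 CPM in KO for 10 genes). Of these 10, Neurod6 fell (-0.34, SE 0.0623), beside 1.05% of all genes tested, and 9 did not pass. Fold changes were positive in 3 and negative in 7, beside 51.8% negative over all genes tested. Among 8 interneuron and 8 vascular markers 0 passed either way (edgeR, DESeq2 and limma-voom), with 2 interneuron markers lower at an unadjusted p under 0.05 and 0 of the vascular ones. Over all genes tested 6.95% passed in edgeR and 7.66% were lower at that unadjusted p. Six6 and Nms, markers of the suprachiasmatic nucleus, where the master clock sits, had 0 counts in all 6 libraries, which allows up to 0.157 CPM per library. The other 6 of the 8 markers listed for that nucleus had reads, the 8 summing to 29.61 to 33.69 CPM in WT and 28.65 to 31.56 CPM in KO. Vip, which hippocampal interneurons also express, gave the most, and Prokr2 (0.56, adjusted p = 0.0820) and Rgs16 (-0.33, adjusted p = 0.173) did not pass. All 24 markers of astrocytes, oligodendrocytes and microglia had positive fold changes, with summed levels of 11078 to 11310 CPM in WT and 12124 to 12899 CPM in KO and a median log2 fold change of 0.20. Of these 24, the astrocyte gene Gfap (0.41, SE 0.0621) and the myelin gene Mbp (0.25, SE 0.0566) rose, beside 5.90% of all genes tested. At an unadjusted p under 0.05, 16 of the 24 were higher, beside 12.6% of all genes tested. The groups did not overlap in 11 of the 24, beside 25.2% of all genes tested. Leaving out KO replicate 2 or KO replicate 3 ended the Mbp call (adjusted p = 0.0564 and 0.107). Of 7 tested markers of choroid plexus and ependyma Kl rose (21.95 ± 1.37 to 58.9 ± 3.45 CPM), and the other 6 did not pass. Without Kl the 7 listed markers summed to 37.4, 18.1 and 27.2 CPM in WT and 75.8, 20.8 and 74.1 CPM in KO, overlapping, and Ttr ranged from 1.6 to 58.9 CPM within KO. Clock genes are transcribed in neurons and glia alike, and in whole hippocampus fewer cells of a type and less RNA per cell cannot be told apart. The part of these glial levels in the rise of Dbp was not tested.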

How the data were processed

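The authors deposited raw gene counts, 1 column per library, for 48795 Ensembl identifiers. The submitters' processing notes name cutadapt 1.18, HISAT2 and HTSeq 0.11.1 as tools, and GRCm38 (mm10) as the build. Strand setting and annotation release: not given in the sources used here. Symbols, positions and exon lengths came from GENCODE M21, and 360 identifiers (0.0512% of all counts) had no match there.

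Low counts were removed by filterByExpr (minimum count 10, minimum total 15), scaled with TMM and tested with edgeR's quasi-likelihood test, genotype as the only term, with Benjamini-Hochberg adjustment over all 16861 genes at a threshold of 0.05. The code was tested on simulated data. The SE is the fold change divided by the square root of F. DESeq2, limma-voom, other scalings, filters and thresholds, a replicate block, a loess GC correction (span 0.3) and leaving out each library were run. Software was R 4.3.3, edgeR 4.0.16, limma 3.58.1 and DESeq2 1.42.0.

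The members and lists were chosen with earlier results of these data known. Named genes were the members, up to 4 genes past the threshold per list (or the 2 with the smallest p), Kdm1a, Kdm5c and the 5 genes most like the most variable member. Relatives and neighbours of members, and other genes outside this rule, were chosen after their values were seen.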

Additional observations from a re-analysis of the deposited data

How the results depend on the processing

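Dbp rose in each of the 14 alternative fits, with log2 fold changes of 0.30 to 0.47. The count of members that rose was 2 with library size alone or at a threshold of 0.1 (Cry1 added), and 1 with each library left out. The count that fell was 1 with no filter on low counts (Per1) and 0 to 1 with a library left out. Fold changes near 0 changed sign in Nr1d1 (-0.045 after GC correction, and -0.025 to 0.033 with a library left out), in Nr1d2 (0.008 with library size alone, 0.039 after GC correction, and -0.123 to 0.054 with a library left out) and in Per3 (-0.020 to 0.142 with a library left out). The other clock genes that fell numbered 1 to 2 with a library left out, and 0 rose. In the lists of time and state, falls numbered 10 and rises 2 with no filter, falls 1 at a threshold of 0.01 and 6 at 0.1, and with a library left out falls ranged from 1 to 7 and rises from 1 to 2. The difference in the log2 ratio of Dbp to Arntl was 0.48 with a prior count of 1 and 0.39 to 0.53 with a library left out. Over all genes, 995 rose and 177 fell. Falls were 279 with no filter and 296 after GC correction, 47 and 395 at thresholds of 0.01 and 0.1 (614 rises at 0.01), and 48 to 323 with a library left out, against 676 to 1101 rises. Without a filter 28783 genes were tested. The cause of the other shifts was not tested.

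Libraries of the 2 groups share replicate numbers only. Deviations of same-numbered libraries from their group means correlated at -0.0174, -0.0358 and -0.0644, and 0 of 6 libraries correlated best with its own number. With a replicate block 1 member rose and 0 fell (Dbp, adjusted p = 0.0107), 2 other clock genes fell, and 960 genes rose and 149 fell. Depth was near equal between libraries. Cry1 had the fewest reads of the members (219 to 344 per library), while Per1 had the largest SE (0.143, against 0.103 for Cry1).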
